A study of Saccharomyces cerevisiae with 6 samples.

Results

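Protein glycosylation and mannan synthesis were followed through 45 genes of budding yeast (Saccharomyces cerevisiae), of 6226 features measured in all. The genes were taken by name: every probe annotated as ALG, OST, PMT, MNN, KTR, ANP, VAN, HOC, OCH or KRE with a number, except 3 KRE genes (KRE28, KRE29 and KRE33) that have other functions. The rule uses names and no expression value, although the gene families were picked with earlier results of these data known. Of the 45, 20 act in the endoplasmic reticulum (ER) at 4 steps, 19 act in the Golgi in 3 groups, 4 are KRE genes of cell wall glucan and 2 carry KRE names but act elsewhere. ALG3, ALG12, ALG13, ALG14 and PMT7 were not analysed here, and ALG10 is covered under its other name, DIE2.

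The study set 1 haploid flor strain against 1 haploid wine strain, with 3 biological replicates of each, of which replicate 2 is titled a technical repeat in both strains. The flor strain, P3_Kan, is P3-D5, of mating type alpha and with a KanMX cassette, a drug-resistance marker. Flor yeasts can grow as a film (velum) on finished wine. The wine strain, K1_Kan, is K1-280-2B, of mating type a, and the labels do not explain the Kan of its name. The cultures grew under shaking in synthetic medium that imitates wine, at 28 °C, until their optical density at 600 nm reached 1, and under shaking neither strain makes a velum. One strain stands for each yeast type, and strain, yeast type and mating type differ together and cannot be told apart. Whether the wine strain carries the same cassette is not stated, and a difference in the marker could not be told apart from these either.

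Expression was measured on 1-colour arrays, 1 per replicate, and each value is the authors' normalized log2 intensity, on which a difference of 1 is a doubling. Changes are the flor mean minus the wine mean from limma, a linear model fitted to all features together, and a gene passed the test at an adjusted p under 0.05 (Benjamini-Hochberg over all features). Probes differ in brightness, so levels are compared between strains for 1 gene and not between genes. An array averages over a culture, so fewer expressing cells and less RNA per cell cannot be told apart. All 6 a-specific mating genes were lower (log2 changes of −4.79 to −1.37) and all 4 alpha-specific genes higher (3.44 to 7.17) in the flor strain, as its label says. Flor replicate 1 stood apart: it was the flor array farthest from the strain mean for 60.9% of all features and for 31 of the 45 glycosylation genes (68.9%). Calls that ended when 1 array was left out are given with their value without that array.

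Secreted and cell wall proteins of yeast receive sugars along 2 routes. In N-glycosylation an oligosaccharide is built on the lipid dolichol, first on the cytosolic and then on the lumenal face of the ER membrane, and oligosaccharyltransferase moves it to asparagines. In O-mannosylation the PMT enzymes transfer mannose from dolichol phosphate to serines and threonines. In the Golgi both kinds of chain are lengthened with mannose, and on N-glycans of wall proteins this gives mannan, the long branched polymer that covers the cell surface. Adhesins such as Flo11 and the mucin-like sensors of signalling pathways are heavily O-mannosylated in this yeast.

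In the flor strain 3 of the 20 genes of the ER steps were higher and 10 lower. Of the 19 Golgi genes 5 were higher and 2 lower. Of the 45 genes, 9 were higher and 12 lower at the threshold, while 24 did not pass. Both shares lay close to those of all features, of which 20.5% were higher and 23.6% lower (44.1% in either direction), so that the count by itself sets the pathway apart from nothing. Their median log2 change was −0.06, against −0.02 over all features. Of the 45, KTR2 (2.23-fold higher) and PMT1 (2.03-fold lower) changed by a fold of 2 or more, as 6.41% of all features did. The median size of the log2 change in either direction was 0.25, against 0.23 over all features. The arrays of the strains did not overlap for 28 genes, 11 higher and 17 lower, where 25.7% of all features were higher and 30.4% lower without overlap (56.1% in either direction).

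By compartment, 3 of the 20 ER genes were higher and 10 lower (median −0.28), while 5 of the 19 Golgi genes were higher and 2 lower (median −0.0069). In either direction 65% of the ER genes and 36.8% of the Golgi genes passed, against 44.1% of all features. By step, 50% passed on the cytosolic face, 75% in the lumenal group and 66.7% of the OST and of the PMT genes. Of the backbone genes 28.6% passed, of the branching genes 25%, of the KTR family 50% and of the KRE genes of glucan 25%. With the trend of expression with gene length removed from each array, 4 ER genes were higher and 8 lower with a median of −0.18, and the Golgi counts were the same with a median of 0.058. On the slide with 2 arrays per strain alone, 1 ER gene was higher and 5 lower, and 1 Golgi gene was higher and none lower. No test of the difference between the compartments was run. The medians on the slide with 1 array per strain and on the slide with 2 were −0.17 and −0.33 for the ER genes and 0.04 and −0.02 for the Golgi genes. All 21 genes that passed changed in the same direction on both slides, as did 2745 of the 2746 features that passed in all. The strains did not overlap in any of the 21, so this could not have come out otherwise. Without flor replicate 1 the ER count was the same, 3 higher and 10 lower, and 6 Golgi genes were higher and 2 lower. With wine replicate 1, 2 or 3 left out, 1 ER gene was higher and 7, 9 and 7 were lower, and 3, 4 and 4 Golgi genes were higher and 1 was lower. Without flor replicate 2, 4 ER genes were higher and 10 lower, and without flor replicate 3, 2 were higher and 9 lower, with 4 Golgi genes higher and 1 lower. The counts over all features moved too, from 1276 higher and 1470 lower with all arrays. They were 996 and 1080, 966 and 1074, and 972 and 1094 without wine replicate 1, 2 or 3. Without flor replicate 1, 2 or 3 they were 1502 and 1777, 1262 and 1393, and 1096 and 1220.

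**Figure D1:**
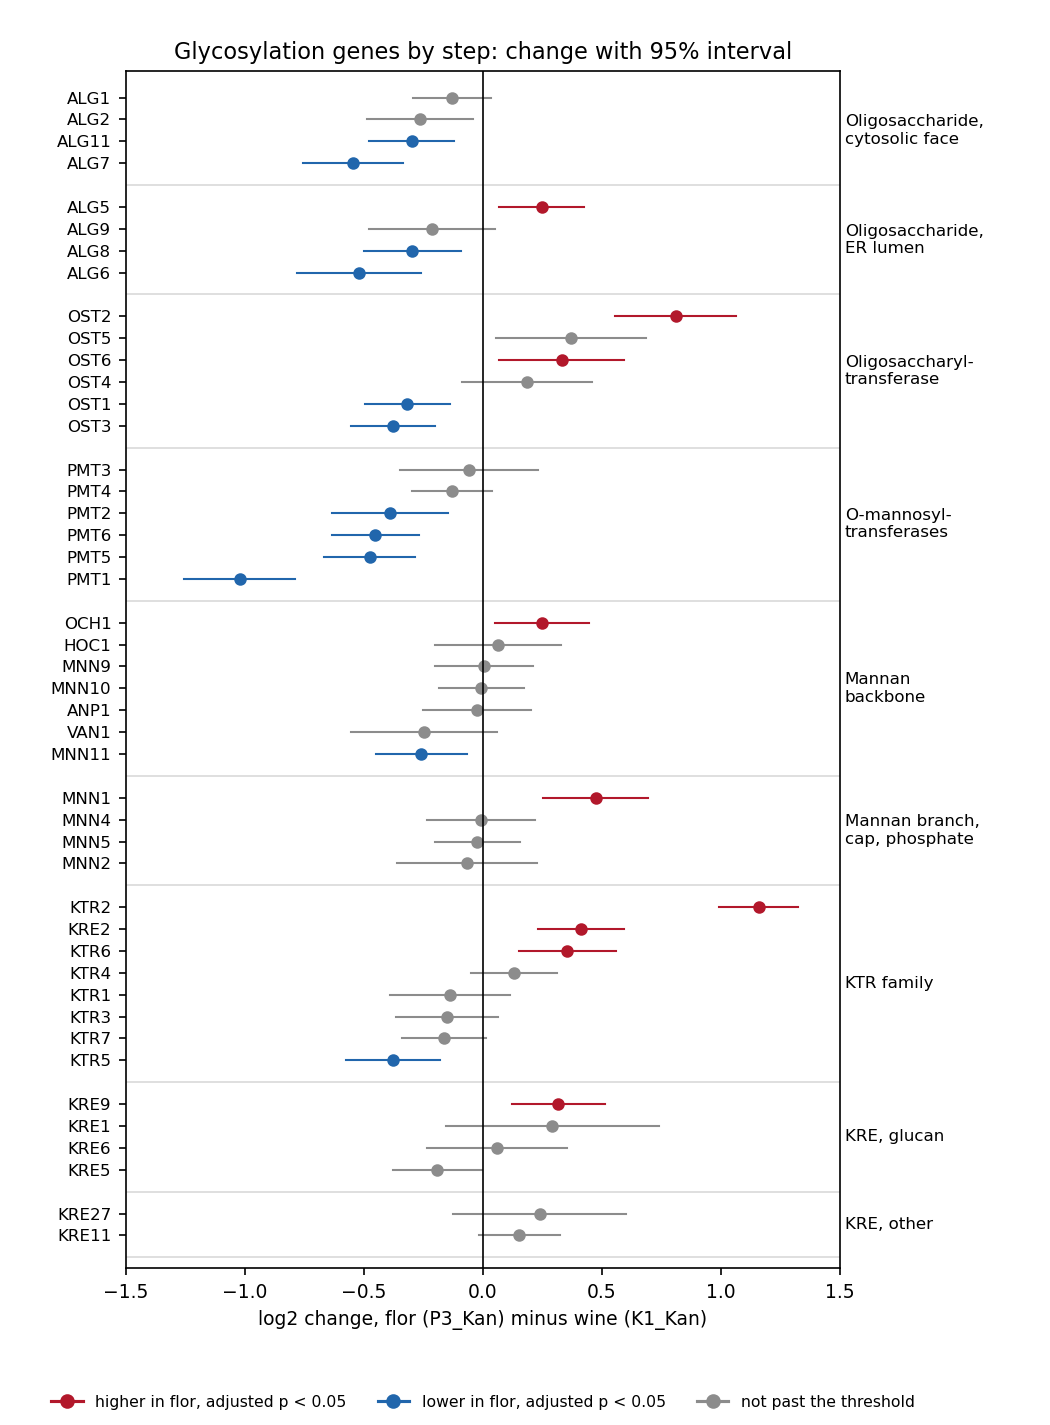
Log2 change between the flor and wine strains (horizontal axis) for each of the 45 genes, grouped by step from the ER to the Golgi and wall. Points are limma estimates, lines their 95% intervals, and colours the call at an adjusted p under 0.05. Blue points (lower in flor) gather among the oligosaccharide and O-mannosyltransferase genes, PMT1 lies lowest at −1.02, and KTR2 highest at 1.16.

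Of the 4 genes that build the lipid-linked oligosaccharide on the cytosolic face, ALG7 and ALG11 were lower in the flor strain and ALG1 and ALG2 did not pass (median −0.28). The flor arrays lay below the wine arrays in all 4, as they did for 30.4% of all features. ALG7 encodes the transferase that puts the first sugar phosphate on dolichol and is the target of tunicamycin. Its log2 intensities were 7.40, 7.63 and 7.67 in the flor arrays and 8.17, 8.12 and 8.06 in the wine arrays. Every flor value lay below every wine value, and the level was 1.46-fold lower in flor (95% interval 1.26 to 1.69, adjusted p = 0.0016). ALG11, which adds the last mannoses on this face, had 8.84, 8.99 and 9.01 in the flor arrays, against 9.24, 9.25 and 9.24 in the wine arrays. This 1.23-fold lower level passed (adjusted p = 0.014), but dropping wine replicate 1 (0.0514) or 2 (0.0502) ended the call and left 1 gene of the 4 lower. ALG2, a mannosyltransferase that acts before it, changed by −0.27 and did not pass (adjusted p = 0.054), though it did without flor replicate 2 (0.034), which made 3 lower. ALG1, which adds the first mannose, changed by −0.13 (95% interval −0.29 to 0.03).

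In the group of the lumenal side ALG6 and ALG8, which add glucose, were lower. ALG5, counted here because it makes their glucose donor, was higher. DIE2, which adds the last glucose, and ALG9 did not pass. The median of the 4 ALG genes was −0.26, and −0.15 with the length trend removed. ALG6 comes before ALG8 in the pathway, and the full glucose cap is what oligosaccharyltransferase recognises best. ALG6 had log2 intensities of 9.02, 8.55 and 8.79 in the flor arrays and 9.31, 9.27 and 9.34 in the wine arrays, 1.43-fold lower in flor (1.20 to 1.72, adjusted p = 0.0063). The flor arrays spread far more widely (SD 0.23) than the wine arrays (SD 0.04) without reaching them. ALG8 had 6.65, 6.49 and 6.62 in the flor arrays, against 6.99, 6.75 and 6.91 in the wine arrays, 1.23-fold lower (adjusted p = 0.025). ALG8 lay low on the arrays, at the 18.9th percentile of mean intensity. Its call was lost when flor replicate 2 (adjusted p = 0.072), flor replicate 3 (0.054), wine replicate 1 (0.105) or wine replicate 3 (0.087) was dropped, each of which left 1 lumenal gene lower. The ALG8 call was also lost with the length trend removed (adjusted p = 0.161).

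ALG5 makes dolichyl-phosphate-glucose, the donor for both enzymes. It had 7.05, 6.97 and 6.99 in the flor arrays and 6.78, 6.66 and 6.83 in the wine arrays, 1.19-fold higher in flor (adjusted p = 0.032). The strains did not overlap, yet the call was lost when flor replicate 3 (adjusted p = 0.074) or any wine replicate was dropped (0.079, 0.122 and 0.056 for replicates 1, 2 and 3). No gene of this group was then higher. ALG9, a lumenal mannosyltransferase, changed by −0.21 with overlapping strains (95% interval −0.48 to 0.05). DIE2 was at 6.82 ± 0.10 in flor and 6.86 ± 0.11 in wine (SD, n = 3 per strain) and did not pass (adjusted p = 0.77).

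Subunits of oligosaccharyltransferase changed in opposite directions. Of 6 OST genes, 2 were higher (OST2 and OST6) and 2 lower (OST1 and OST3). OST2, an essential small membrane subunit related to mammalian DAD1, had log2 intensities of 11.10, 10.74 and 10.74 in the flor arrays and 9.99, 10.14 and 10.03 in the wine arrays. It was 1.75-fold higher in flor (1.47 to 2.09, adjusted p = 0.0005), the largest change of the complex, at 0.60 on the slide with 1 array per strain and 0.91 on the other. OST1, a large lumenal subunit related to ribophorin I, had 8.59, 8.60 and 8.74 in the flor arrays, against 8.97, 8.91 and 9.00 in the wine arrays. It was 1.25-fold lower (adjusted p = 0.011), a call that dropping wine replicate 3 ended (0.052), with 1 OST gene then lower.

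Ost3 and Ost6 are related subunits with a thioredoxin-like fold, and each complex holds one or the other. OST3 had 9.70, 9.82 and 9.73 in the flor arrays and 10.08, 10.11 and 10.20 in the wine arrays, 1.30-fold lower in flor (1.15 to 1.47, adjusted p = 0.0043). OST6 had 8.38, 7.99 and 8.11 in the flor arrays, against 7.86, 7.69 and 7.93 in the wine arrays, 1.26-fold higher (1.05 to 1.51, adjusted p = 0.044). The OST3 values of the strains lay well apart, whereas the lowest flor and highest wine values of OST6 nearly met. The OST6 call was lost when flor replicate 1 (adjusted p = 0.052), flor replicate 3 (0.077) or any wine replicate was dropped (0.096, 0.163 and 0.064 for replicates 1, 2 and 3), and in the wine cases OST2 alone was higher.

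OST5 and OST4, the smallest subunits, did not pass. OST5 had 10.69, 10.18 and 10.15 in the flor arrays and 9.94, 10.01 and 9.97 in the wine arrays (change 0.37, adjusted p = 0.058). Flor replicate 1 alone stood far above, and OST5 passed with flor replicate 1, 2 or 3 left out (adjusted p = 0.039, 0.040 and 0.042). OST4 changed by 0.19 (−0.09 to 0.46). The 3 other subunits of the complex, the catalytic STT3 (−0.31), WBP1 (0.11) and SWP1 (0.04), did not pass either (adjusted p = 0.098, 0.38 and 0.75). OST2, OST4, OST5 and OST6 were each at their highest of the flor arrays in flor replicate 1, and OST2 kept its call without that array.

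The O-mannosyltransferase genes that passed were all lower in the flor strain. All 6 PMT genes had a lower mean in the flor strain on the deposited scale with all arrays, and 4 passed the test, with none higher. The sign of PMT3 turned without flor replicate 1 (0.07) or wine replicate 2 (0.01), and those of PMT3 and PMT4 turned (0.08 and 0.01) with the gene-length trend removed. The median change of the 6 was −0.42 (−0.28 with the length trend removed), and it was −0.38 and −0.44 on the slides with 1 and 2 arrays per strain. PMT1 and PMT2 encode the partners of the main O-mannosyltransferase complex. PMT1 had log2 intensities of 8.12, 8.48 and 8.33 in the flor arrays and 9.29, 9.39 and 9.32 in the wine arrays. All 3 flor values lay far below the wine values, and PMT1 was 2.03-fold lower in flor (1.73 to 2.39, adjusted p = 7.6e-05). PMT2 had 9.50, 9.91 and 9.76 in the flor arrays, against 10.15, 10.07 and 10.12 in the wine arrays, 1.31-fold lower (1.11 to 1.55, adjusted p = 0.018). Dropping wine replicate 1 (adjusted p = 0.064) or 3 (0.0585) ended the PMT2 call and left 3 PMT genes lower.

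PMT5, of the PMT1 subfamily, and PMT6, of the PMT2 subfamily, were lower by similar amounts. PMT5 had 7.33, 7.37 and 7.46 in the flor arrays and 7.87, 7.96 and 7.76 in the wine arrays, 1.39-fold lower (1.22 to 1.59, adjusted p = 0.0019). PMT6 had 8.83, 8.93 and 8.99 in the flor arrays, against 9.36, 9.45 and 9.31 in the wine arrays, 1.37-fold lower (1.21 to 1.55, adjusted p = 0.0020). Neither gene had overlapping strains, and both kept their calls whichever array was left out. PMT4, whose product works as a homodimer on membrane-attached proteins, changed by −0.13 (−0.30 to 0.04), with the flor arrays just below the wine arrays. PMT3, the usual partner of PMT5, changed by −0.06 (−0.35 to 0.23), with overlap. The PMT genes are long, with annotated lengths of 2232 to 2454 bases against a median of 1338 over all features with a length. With the trend of expression with gene length removed from each array, PMT1 changed by −0.87, PMT5 by −0.33 and PMT6 by −0.31, all past the threshold, and PMT2 by −0.25 (adjusted p = 0.052).

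**Figure D2:**
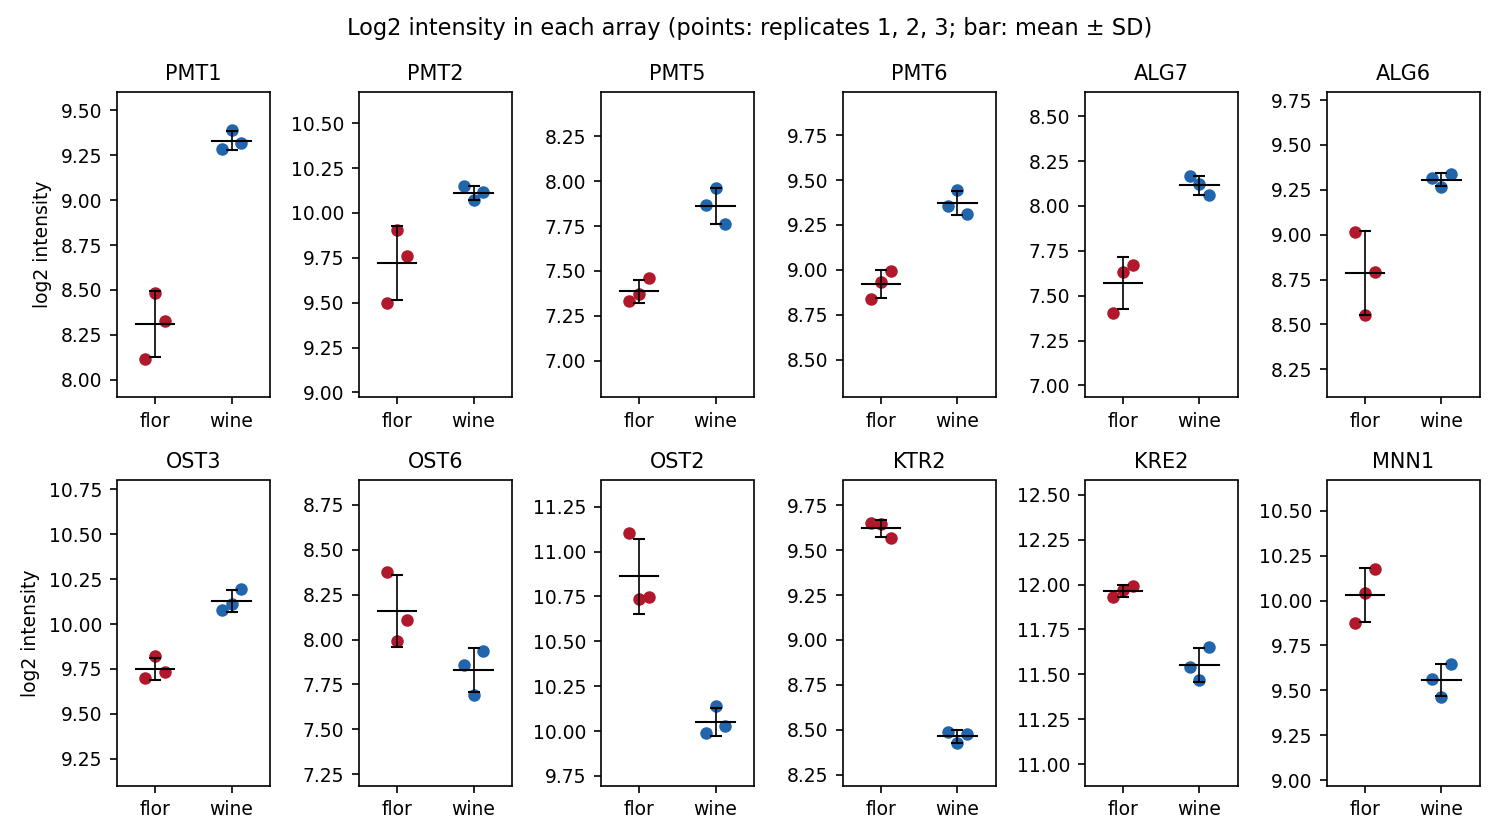
Log2 intensity (vertical axis, the same span of 1.7 in each panel) of 12 of the genes that passed, in the 3 flor arrays (red) and the 3 wine arrays (blue), with replicates 1, 2 and 3 from left to right and the mean ± SD as bars. The strains do not overlap in any panel, and the gap is widest in PMT1 and KTR2.

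Of the genes of the mannan backbone 28.6% passed the test, against 44.1% of all features. OCH1 starts the outer chain, the complex of MNN9 and VAN1 extends it, and the complex of MNN9, ANP1, MNN10, MNN11 and HOC1 extends it further. Of these 7 genes, 1 was higher (OCH1) and 1 lower (MNN11), with a median of −0.01. OCH1 had log2 intensities of 8.57, 8.41 and 8.56 in the flor arrays and 8.36, 8.17 and 8.26 in the wine arrays, 1.19-fold higher in flor (adjusted p = 0.046). MNN11 had 8.05, 8.20 and 8.16 in the flor arrays, against 8.50, 8.33 and 8.36 in the wine arrays, 1.20-fold lower (adjusted p = 0.034). The nearest values of the strains almost met in OCH1 (8.41 in flor and 8.36 in wine) and lay further apart in MNN11 (8.20 in flor and 8.33 in wine). Both calls were lost when flor replicate 3 (adjusted p = 0.13 for OCH1 and 0.072 for MNN11), wine replicate 1 (0.057 and 0.138), wine replicate 2 (0.161 and 0.058) or wine replicate 3 (0.122 and 0.076) was dropped, and then no backbone gene passed.

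The other 5 backbone genes did not pass. MNN9, shared by both polymerases, was at 9.49 ± 0.14 in flor and 9.49 ± 0.06 in wine (95% interval of the change −0.20 to 0.21). MNN10 changed by −0.01 (−0.19 to 0.17) and ANP1 by −0.03 (−0.25 to 0.20). HOC1 changed by 0.06 (−0.20 to 0.33), and it passed as higher without flor replicate 1 (adjusted p = 0.043), which made 2 backbone genes higher. VAN1 had the widest interval, with a change of −0.25 (−0.55 to 0.06). Flor replicate 1 lay below the other flor arrays in HOC1, ANP1 and VAN1.

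Of the genes that branch and finish mannan, the terminal enzyme alone was higher. MNN1 adds the capping mannose of N-linked and O-linked chains. It had 9.87, 10.04 and 10.17 in the flor arrays and 9.56, 9.46 and 9.64 in the wine arrays. All flor values lay above all wine values, and MNN1 was 1.39-fold higher in flor (1.19 to 1.62, adjusted p = 0.0045), with changes of 0.71 and 0.35 on the slides with 1 and 2 arrays per strain. The branching enzyme genes MNN2 and MNN5 changed by −0.07 (−0.36 to 0.23) and −0.02 (−0.20 to 0.15). MNN4, a positive regulator of mannosylphosphate addition, was at 9.74 ± 0.16 in flor and 9.75 ± 0.08 in wine (interval of the change −0.23 to 0.22).

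The KTR family of Golgi mannosyltransferases, to which KRE2 belongs, held KTR2, the member with the largest increase of the 45. Of the 8 family genes taken by the naming rule, 3 were higher, 1 was lower and 4 did not pass (median −0.0037). YUR1, the closest relative of KTR2, is given below with the other Golgi genes. KTR2, a mannosyltransferase of N-glycans, had log2 intensities of 9.65, 9.64 and 9.57 in the flor arrays and 8.49, 8.42 and 8.48 in the wine arrays. The replicates of each strain lay close together, and KTR2 was 2.23-fold higher in flor (1.99 to 2.51, adjusted p = 4.2e-06). KRE2 adds mannose to O-linked and N-linked chains. It had 11.93, 11.97 and 11.99 in the flor arrays, against 11.54, 11.47 and 11.65 in the wine arrays, 1.33-fold higher (1.17 to 1.51, adjusted p = 0.0031). KTR6, the mannosylphosphate transferase that MNN4 regulates, had 10.41, 10.26 and 10.32 in the flor arrays and 9.84, 10.08 and 10.01 in the wine arrays, 1.28-fold higher (adjusted p = 0.0115). KTR2 and KRE2 passed whichever array was left out. KTR6 lost its call when wine replicate 1 was dropped (adjusted p = 0.055), which left 2 genes of the family higher.

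KTR5, a presumed mannosyltransferase, moved the other way. It had 7.45, 7.53 and 7.65 in the flor arrays, against 7.92, 8.00 and 7.84 in the wine arrays, 1.30-fold lower in flor (1.13 to 1.49, adjusted p = 0.0073). Its closest relative KTR7 changed by −0.16 (−0.34 to 0.01) without passing, although its strains did not overlap. KTR1 and KTR3, which share the O-linked step with KRE2, changed by −0.14 (−0.39 to 0.11) and −0.15 (−0.36 to 0.06), and KTR4 by 0.13 (−0.05 to 0.31), all 3 with overlapping strains.

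Among the KRE genes of glucan, which make or hold the minor branched beta-glucan that ties mannoproteins to the wall, 1 of 4 passed. KRE9, a secreted O-glycosylated protein, had 11.69, 11.83 and 11.78 in the flor arrays and 11.45, 11.35 and 11.56 in the wine arrays, 1.25-fold higher in flor (1.09 to 1.42, adjusted p = 0.016). Dropping wine replicate 1 (adjusted p = 0.057) or 2 (0.070) ended its call, and no gene of the group then passed. KRE1, a wall protein, had 11.70, 12.51 and 12.18 in the flor arrays, against 11.59, 12.03 and 11.90 in the wine arrays (change 0.29, adjusted p = 0.27). KRE6, a presumed glucan synthase of the secretory pathway, had 8.78, 9.17 and 9.32 in the flor arrays and 9.01, 9.05 and 9.03 in the wine arrays (change 0.06, adjusted p = 0.75). Flor replicate 1 was the lowest flor array in both, and without it KRE1 (0.51, adjusted p = 0.0059) and KRE6 (0.25, adjusted p = 0.031) passed as higher, which made 3 of 4. KRE5, an ER protein related to the glucosyltransferase of glycoprotein quality control, changed by −0.19 (−0.38 to −0.0040, adjusted p = 0.091). The genes annotated as KRE27 and KRE11 are EMC5 of the ER membrane complex and TRS65 of a vesicle tether, and they changed by 0.24 (−0.12 to 0.60) and 0.15 (−0.02 to 0.32) without passing.

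**Figure D3:**
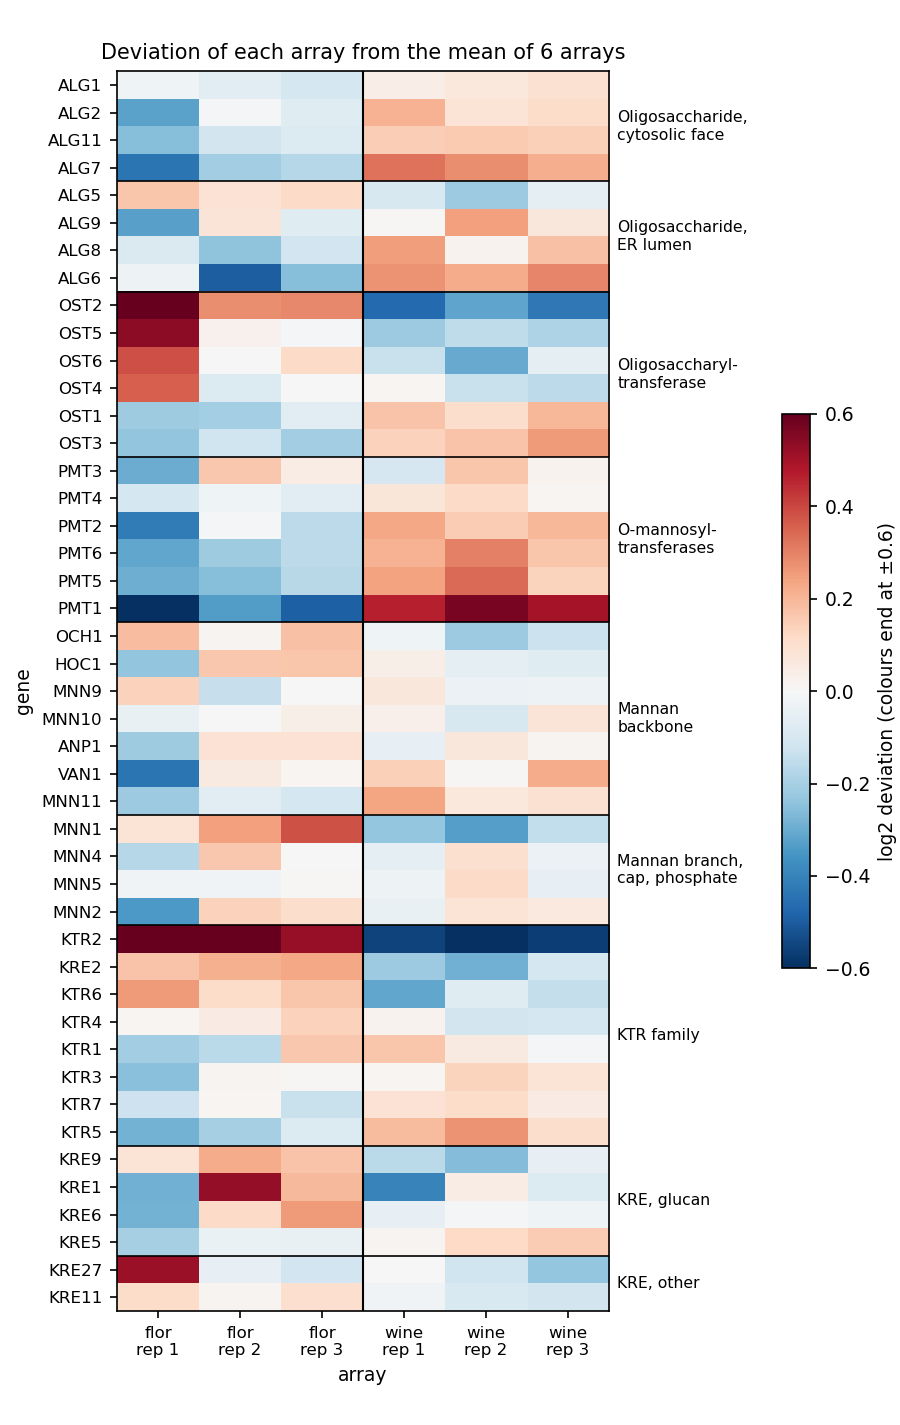
Deviation of each array (columns, flor replicates on the left and wine replicates on the right) from the mean of the 6 arrays in log2 units, for the 45 genes in rows by step. Red is above and blue below the mean, with colours ending at ±0.6. Flor replicate 1 is the most deeply coloured flor column for the small OST genes and KRE27, which are above the mean there, and for VAN1, MNN2 and PMT2, which are below.

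The genes around these steps, from lists of the same pathway, also moved in both directions. Over all features 20.5% were higher and 23.6% lower (44.1% in either direction), the share to set beside each count. Of 20 measured genes for dolichol and sugar donors, 3 were higher and 9 lower (60% in either direction, median −0.22). The count of lower genes was 3, 4 and 3 with wine replicate 1, 2 or 3 left out and 11, 8 and 6 with flor replicate 1, 2 or 3 left out, and 6 were higher without flor replicate 1. The lower counts over all features were 1080, 1074 and 1094 without wine replicate 1, 2 or 3, against 1470 with all arrays. They were 1777, 1393 and 1220 without flor replicate 1, 2 or 3, and 1502 features were higher without flor replicate 1. Of the 20 donor genes PGM1, the minor phosphoglucomutase, changed most. It was at 6.69 ± 0.10 in flor and 8.10 ± 0.08 in wine, 2.66-fold lower (adjusted p = 3.5e-06). PGM2, the major one, was 1.53-fold lower (adjusted p = 0.013), though not without wine replicate 2 (0.060). SRT1, a minor cis-prenyltransferase that makes the dolichol chain, was at 7.70 ± 0.11 in flor and 6.59 ± 0.09 in wine, 2.15-fold higher (adjusted p = 2.2e-05). DPM1, which makes dolichol-phosphate-mannose, the mannose donor of the PMT enzymes, was at 10.89 ± 0.10 in flor and 10.26 ± 0.11 in wine, 1.56-fold higher (adjusted p = 0.00063). DPM1 was higher, then, while the 4 PMT genes that passed, whose products use its product, were lower.

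Trimming of the glycan after transfer starts with the 2 glucosidases, and both of their genes were lower. CWH41, glucosidase I, was at 8.44 ± 0.09 in flor and 8.94 ± 0.05 in wine, 1.41-fold lower (adjusted p = 0.0011). ROT2, the catalytic subunit of glucosidase II, was 1.42-fold lower (adjusted p = 0.0014). None of the 5 other measured genes of trimming and quality control passed (MNS1, CNE1, MNL1, PNG1 and PDI1, with changes of −0.20 to 0.15). Of the 7 in all, 28.6% passed, against 44.1% of all features. ALG6 and ALG8, which add the first and second glucose, were lower too, whereas DIE2, which adds the last, did not pass.

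Among 7 other Golgi genes of mannosylation, 4 were higher and 2 lower (85.7% in either direction, median 0.22). Higher genes numbered 2, 1 and 2 with wine replicate 1, 2 or 3 left out and 2 with flor replicate 3 left out, and 1 was lower without wine replicate 2 or 3. The higher counts over all features in the same settings were 996, 966, 972 and 1096, against 1276 with all arrays. MNT2 belongs to the MNN1 family and adds mannose to the ends of O-linked chains, and it was at 9.42 ± 0.19 in flor and 8.24 ± 0.06 in wine, 2.26-fold higher (adjusted p = 3.8e-05). GNT1, which adds N-acetylglucosamine, was 1.39-fold higher (adjusted p = 0.015; 0.064 without wine replicate 2). YUR1, the closest relative of KTR2, was 1.29-fold higher (adjusted p = 0.038), but not when flor replicate 3 (0.0558) or any wine replicate was dropped (0.0726, 0.148 and 0.0503). PMR1, the Golgi calcium and manganese pump on which mannosyltransferases depend, was 1.38-fold lower (adjusted p = 0.027), but not without wine replicate 2 or 3 (0.108 and 0.077). The PMR1 call was also lost with the gene-length trend removed (adjusted p = 0.056).

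Of 4 other genes of the branched glucan, KNH1 (1.65-fold lower, adjusted p = 0.0005) and SKN1 (1.41-fold lower, adjusted p = 0.0050) were lower and none was higher. This is 50%, near the 44.1% of all features that passed. Of 17 measured genes of the glycosylphosphatidylinositol (GPI) anchor, which also carries mannose, 4 were higher and 4 lower (47.1% in either direction, median −0.09). With 1 array left out, 2 to 4 were higher, fewest without wine replicate 3 (2), and 3 to 6 lower, most without flor replicate 1 (6). The largest of these changes were those of GPI12 (0.77) and GPI17 (0.40) upward and of MCD4 (−0.47) and GAA1 (−0.41) downward.

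The balance within 11 pairs of related genes is given as a description, since the pairs were chosen with the values known and other pairs were not examined. The log2 ratio of one gene to the other was taken within each array, and the strains did not overlap in 9 pairs. Of all features taken singly, 56.1% did not overlap, and the share among ratios of other pairs is not known. With 3 arrays against 3 the smallest exact two-sided permutation p is 0.10, which these 9 pairs reached (0.122 after adjustment over the 11 pairs), so none can pass at 0.05. The ratio of OST6 to OST3 was −1.32, −1.83 and −1.62 in the flor arrays and −2.22, −2.42 and −2.26 in the wine arrays, a shift of 0.71 towards OST6 in the flor strain (0.79 and 0.67 on the slides with 1 and 2 arrays per strain). Every flor ratio lay above every wine ratio, and that of flor replicate 1 (−1.32) was the highest.

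KRE9 and KNH1 are functional homologues, and their ratio was 2.10, 2.57 and 2.42 in the flor arrays and 1.25, 1.26 and 1.49 in the wine arrays, a shift of 1.03. The ratio of KRE6 to its homologue SKN1 shifted by 0.55, and in both pairs the second gene had the larger change. The ratio of KTR2 to YUR1 shifted by 0.80, that of MNT2 to MNT3 by 1.27 and that of SRT1 to RER2, the main cis-prenyltransferase, by 1.55. The O-mannosyltransferase ratios moved downward, by −0.55 for PMT1 to PMT5 and by −0.33 for PMT2 to PMT3. The ratio of KTR7 to KTR5 shifted by 0.21, while KRE2 to KTR6 (0.06, exact permutation p = 0.60) and MNN5 to MNN2 (0.04, exact permutation p = 0.90) overlapped between strains. The probes' sequences were not used here, so signal shared between related genes was not tested.

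**Figure D4:**
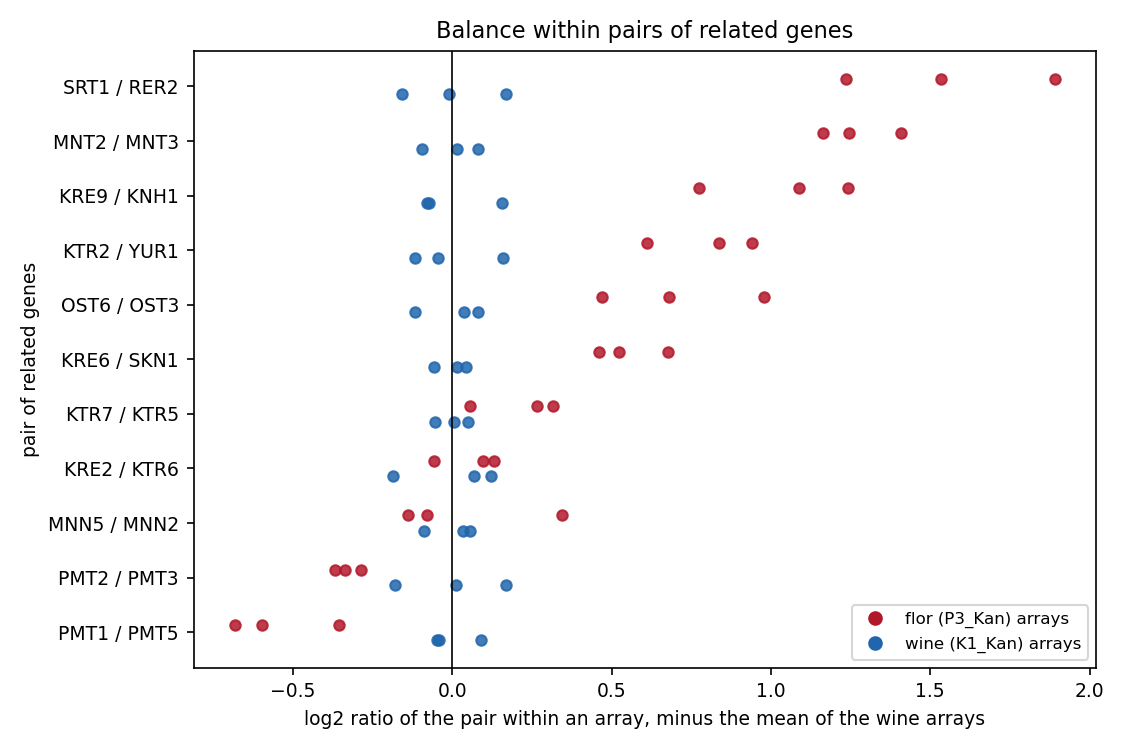
Log2 ratio of 2 related genes within each array, minus the mean ratio of the wine arrays (horizontal axis), for 11 pairs. Red points are flor arrays and blue points wine arrays. The flor points lie to the right of the wine points in 7 pairs, to the left in PMT1 to PMT5 and PMT2 to PMT3, and overlap them in KRE2 to KTR6 and MNN5 to MNN2.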

How the data were processed

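The authors deposited 1 log2 intensity for each of 6227 probes on each of 6 arrays; the scale was read from the values' range (5.29 to 15.88), and the arrays have nearly one distribution (medians 8.33 to 8.35). R 2.14.2 and limma are the tools named, per the submitters' processing notes. The sources used here do not give background correction, normalization method or filters. Such values show changes relative to other genes only, and no probe could be called absent.

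Gene names came from the platform annotation (4061 probes with 1 symbol, 2166 with none, which stay unnamed) and were updated through the R64 gene table, which matched 4057 symbols and all 45 members and gave gene lengths. The 2 probes of FDH2 were averaged, leaving 6226 features. The strain means were fitted with lmFit and eBayes of limma 3.58.1 (R 4.3.3), two-sided, without covariates or filter. The test was checked on simulated data.

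The members, steps and lists were chosen with earlier results of these data known. All members are named, and from each other list up to 4 genes with the largest changes among those that passed without overlap; STT3, WBP1, SWP1, DIE2 and the genes named to complete counts or pairs were added after their values were seen. Alternatives covered centring, filters, variance models, array weights, slide, the replicate number, each array left out, thresholds, gene length and probes. With 3 arrays per strain, their number limits the precision. Where nothing says more of the cultures' origin, p-values measure the spread between these arrays.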

Additional observations from a re-analysis of the deposited data

How the results depend on the processing

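The counts of 9 higher and 12 lower glycosylation genes stayed within 1.5 times under slide or the replicate number as a block, quantile normalization, centring on the median or 75th percentile, removal of the dimmest 25% of features, a variance trend with robust eBayes, removal of the length trend and separate probes. With single arrays left out, 4 to 12 were higher and 8 to 12 lower, fewest higher without wine replicate 1 (4) or 2 (5), and the median ran from −0.10 to −0.02. On the slide with 2 arrays per strain alone, 2 were higher and 5 lower; at an adjusted p under 0.01, 4 and 7; and against a log2 change of 0.5, 1 (KTR2) and 1 (PMT1). Array weights gave 15 higher and 15 lower, against 1728 and 2042 of all 6226 features, and a median of 0.014 for the glycosylation genes. Removal of the length trend gave them a median of 0.021. Without the dimmest 50% of features, 34 of the genes remained and 7 were lower. No gene that passed changed its direction in any of these settings. For the slide settings and the arrays left out this follows from the lack of overlap between the strains. Of the 21 genes that passed, 6 (PMT1, PMT5, PMT6, ALG7, OST2 and KTR2) kept the call in every setting with a threshold of 0.05 on no change, and 15 lost it in at least 1. With the length trend removed, OST4, the shortest gene (111 bases), changed by 0.67, against 0.19 without this step; the cause was not tested. Over all features, 1276 were higher and 1470 lower, against 841 and 920 at an adjusted p under 0.01, 297 and 222 against a log2 change of 0.5, 701 and 723 on the slide with 2 arrays per strain, and 705 and 838 without the dimmest 50% of features, where fewer features were tested. Without wine replicate 1, 2 or 3 the all-feature counts were 996 and 1080, 966 and 1074, and 972 and 1094. Without flor replicate 1, 2 or 3 they were 1502 and 1777, 1262 and 1393, and 1096 and 1220.

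The replicate number as a block gave 11 higher and 12 lower (median −0.06), adding OST5 (adjusted p = 0.034) and KRE1 (0.031). Same-numbered arrays of the strains had correlations of their deviations of 0.37, 0.23 and 0.05, and flor replicates 1 and 2 but not 3 matched their own number best, so the numbers were not taken as pairs.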

Other observations

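KRE1 and PMT3 varied among cultures in the same order in both strains. This order was not particular to them, as ALG9 and MNN4, among others, showed it too. How often such an order arises by chance was not tested. KRE1 was lowest in replicate 1 (11.70 in flor and 11.59 in wine) and highest in replicate 2 (12.51 in flor and 12.03 in wine), with replicate 3 between them (12.18 in flor and 11.90 in wine). PMT3 was likewise lowest in replicate 1 (7.47 in flor and 7.67 in wine) and highest in replicate 2 (7.93 in flor and 7.94 in wine). Both genes were picked out after their values were seen, and the labels do not say whether equal numbers mark cultures grown together.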
